A study of Mus musculus with 6 samples.

Results

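The AP-1 family of transcription factors was examined in cancer stem cells sorted from squamous cell carcinomas of mouse skin. The members were 10 genes fixed by name (Fos, Fosb, Fosl1, Fosl2, Jun, Junb, Jund, Atf3, Batf3 and Maff), each read from a feature that carries its symbol and no other. Such a feature existed for 9 of the 10 members, among 30142 genes measured. The feature annotated to Junb also carries the symbol of Prdx2, so no value is given for Junb. None of the 9 members had more than 1 feature.

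The cells came from Sfrp1-/- mice (Sfrp1_KO, 3 arrays), which lack the gene of a secreted Wnt antagonist, and from wild-type mice (WT, 3 arrays). Tumours of both genotypes had been raised with the mutagen DMBA on postnatal days 23, 25 and 27 and then with TPA, a phorbol ester, 2 times a week for 30 to 40 weeks. Sorting kept lineage-negative cells that carried Epcam, the α6 integrin and CD34, and total RNA of each sample was hybridised to an Affymetrix MTA 1.0 array. The labels give neither strain nor sex, nor whether samples of 1 genotype are separate animals. The p-values therefore measure the spread among the deposited samples, part of which may be technical. The comparison asks how expression in the sorted tumour cells differs in the absence of Sfrp1.

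AP-1 is a dimer of basic leucine zipper proteins. Jun proteins pair with each other or with Fos and ATF proteins. Jun-Jun and Jun-Fos pairs bind the DNA motif TGANTCA, which is also known as the TPA response element because phorbol esters act through it. Fos, Fosb, Jun, Junb and Atf3 are immediate-early genes, whose transcripts appear within minutes of growth factor, stress or phorbol ester signals and decay quickly, and the mechanical and enzymatic dissociation of tissue is known to induce them too. In mouse skin, AP-1 acts in keratinocyte proliferation and differentiation and in the promotion of tumours by TPA.

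Values are log2 signals as deposited, and a difference is Sfrp1_KO minus WT. The signals reached 19.93, above the 16 bits of a scanner, so no difference is turned into a fold. The background level of an array, taken as the highest of its 23 background probe sets, lay between 4.82 and 5.10, and 33.2% to 42.5% of genes stood above it. Differences were tested with limma over all 30142 genes, and a gene was called at a Benjamini-Hochberg adjusted p under 0.05. The targeted gene Sfrp1 had 5.09, 5.11 and 5.15 on the Sfrp1_KO arrays, against 5.71, 5.48 and 6.07 on the WT arrays. Its difference of -0.64 (SE 0.15) was not called (limma adjusted p = 0.0969). An exact two-sided permutation test gave 0.1, which is the lowest p possible with these group sizes. Which part of Sfrp1 is deleted is not in the labels, so its feature need not check the genotype.

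Genes of the sort gate and basal keratinocyte genes were read on the same arrays. Of 10 basal keratinocyte markers 7 fell, and the mean signal of the list ran from 5.92 to 6.03 on the Sfrp1_KO arrays, against 9.25 to 9.73 on the WT arrays. Krt5 had 6.91, 6.71 and 6.32 on the Sfrp1_KO arrays, against 17.67, 16.81 and 17.68 on the WT arrays (limma adjusted p = 0.0001265). Krt14 had 6.78, 6.63 and 6.45, against 14.66, 12.87 and 14.68 (limma adjusted p = 0.0019). In 1 of the 10, Dst, the difference was above 0, without a call. Epcam, a marker of the gate, had 4.99, 4.89 and 5.22 on the Sfrp1_KO arrays, above background on 1 of 3, and 7.43, 8.69 and 6.65 on the WT arrays (limma adjusted p = 0.0455). Itga6, which encodes the α6 integrin, had 7.56, 7.82 and 7.47 on the Sfrp1_KO arrays, against 10.22, 9.30 and 9.0 on the WT arrays (limma adjusted p = 0.0292). Cd34 had 11.23, 11.55 and 10.19 on the Sfrp1_KO arrays, against 9.26, 9.54 and 9.46 on the WT arrays, and was not called (limma adjusted p = 0.0714). Of 9 fibroblast markers 2 rose and 1 fell (list means 6.42 to 7.11 in Sfrp1_KO and 5.52 to 6.77 in WT). None of 11 macrophage and leukocyte markers was called, although 7 had an unadjusted limma p under 0.05. Their list means were 4.79 to 5.48 in Sfrp1_KO and 4.48 to 4.60 in WT. The difference was above 0 in 10 of the 11. In 7 every Sfrp1_KO array lay above every WT array, beside 9.1% of all genes, and in 0 below. Lyz2, named after its values were seen, had 7.94, 6.84 and 5.96 on the Sfrp1_KO arrays. On the WT arrays it had 5.11, 4.69 and 5.02 (limma adjusted p = 0.0941). Ptprc, which encodes CD45, was under background on all 6 arrays. No endothelial, lymphocyte, melanocyte or pericyte marker was called (8, 7, 7 and 7 genes), while 1, 0, 1 and 2 of them had an unadjusted limma p under 0.05. The part of these marker differences in the AP-1 values was not tested, and in such bulk samples fewer cells of a type and less RNA per cell cannot be told apart.

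Among the AP-1 members, Fosb rose in Sfrp1_KO, and it was the 1 member of 9 that was called. Over all genes 3.28% were called, 1.83% higher and 1.45% lower. Jun and Fos stood higher on average in Sfrp1_KO as well, without passing the test, and Fosl2, Atf3, Batf3 and Maff had means within 0.06 log2 units of WT. The median difference of the 9 members was 0.40, which is the value of Jund, a gene near background, beside -0.01 over all genes. Of the members 5 had an unadjusted limma p under 0.05, beside 14.4% of all genes. In 4 of the 9, Fosb, Jun, Fosl1 and Jund, every Sfrp1_KO array lay above every WT array, a separation that 9.1% of all genes showed in that direction and 19.9% in either. Of the 6 members above background on 3 arrays or more, 3 did so, beside 15.2% of all genes above background on 3 arrays or more.

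**Figure D1:**
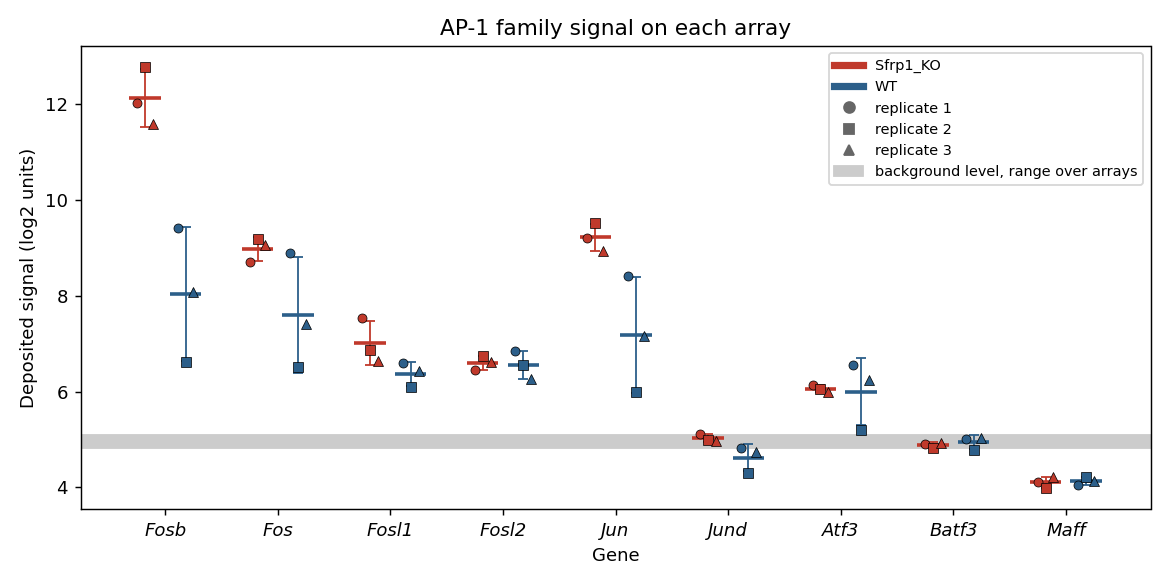
Deposited log2 signal of the 9 measured AP-1 members (vertical axis) on each array, Sfrp1_KO left of WT for each gene; horizontal bars are group means, error bars are SD (n = 3 each), symbols give the replicate number and the grey band is the range of the background level. Fosb lies between 11.57 and 12.77 on the Sfrp1_KO arrays, above the WT arrays at 6.62 to 9.41, and WT replicate 2 is the lowest array for Fosb, Fos, Fosl1, Jun, Jund, Atf3 and Batf3.

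Fosb encodes a Fos protein, which binds DNA together with a Jun partner. Its signal was 12.02, 12.77 and 11.57 on Sfrp1_KO arrays 1, 2 and 3, against 9.41, 6.62 and 8.07 on WT arrays 1, 2 and 3. The 3 Sfrp1_KO arrays were all higher than the highest WT array, and the WT arrays were spread over 2.79 log2 units where the Sfrp1_KO arrays were spread over 1.20. The means were 12.12 ± 0.61 in Sfrp1_KO and 8.03 ± 1.39 in WT (SD, n = 3 each), a difference of 4.09 (SE 0.69, 95% CI 2.42 to 5.76; limma adjusted p = 0.0334). It was the 17th highest difference of all 30142 genes. The call was lost without Sfrp1_KO replicate 1, 2 or 3 (limma adjusted p = 0.115, 0.141 and 0.0756) and without WT replicate 3 (limma adjusted p = 0.101). The difference itself stayed between 3.38, without WT replicate 2, and 4.78, without WT replicate 1, whichever array was left out.

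Fos encodes the prototype of the family and, like Fosb, needs a Jun partner. Its signal was 8.70, 9.17 and 9.06 on the Sfrp1_KO arrays, against 8.89, 6.50 and 7.40 on the WT arrays. WT replicate 1 stood among the Sfrp1_KO arrays and the other WT arrays below them, so the genotypes overlapped. The means were 8.98 ± 0.25 in Sfrp1_KO and 7.60 ± 1.21 in WT (SD, n = 3 each). The difference of 1.38 (SE 0.57, 95% CI 0.02 to 2.74) did not pass the limma test (adjusted p = 0.339), and did so without WT replicate 1 (2.03, limma adjusted p = 0.0358). Without WT replicate 2 it was 0.83 (limma adjusted p = 0.491).

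Jun encodes the main DNA-binding partner of Fos proteins and can also form homodimers. Its signal was 9.21, 9.51 and 8.93 on the Sfrp1_KO arrays, against 8.40, 5.98 and 7.17 on the WT arrays. The genotypes did not overlap, and WT replicate 1 lay nearest to the Sfrp1_KO arrays. The means were 9.21 ± 0.29 in Sfrp1_KO and 7.18 ± 1.21 in WT (SD, n = 3 each). The difference of 2.03 (SE 0.57, 95% CI 0.66 to 3.40) was not called (limma adjusted p = 0.149), and was called without WT replicate 1 (2.64, limma adjusted p = 0.0334). Without WT replicate 2 it was 1.43 (limma adjusted p = 0.169).

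**Figure D2:**
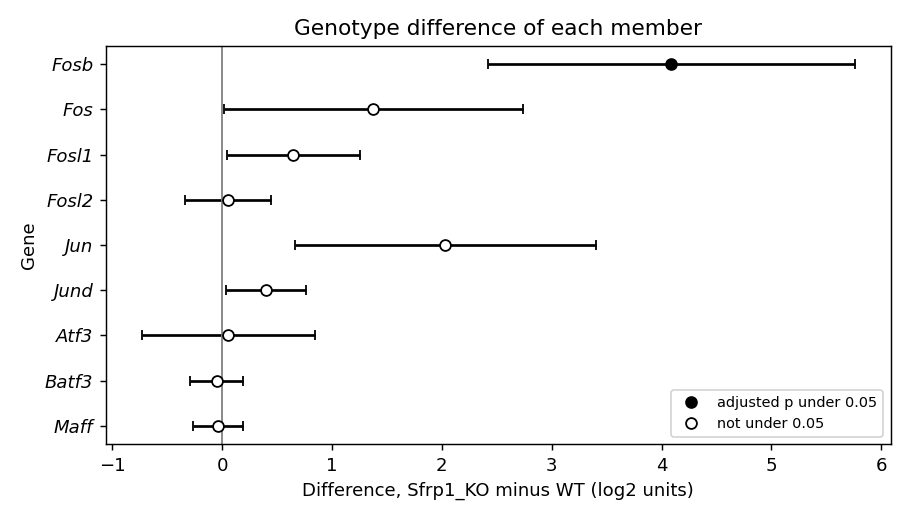
Genotype difference of each measured AP-1 member, Sfrp1_KO minus WT in log2 units (horizontal axis), with its 95% confidence interval from limma; the filled point marks an adjusted p under 0.05. Fosb at 4.09 is the filled point, and the intervals of Fosl2, Atf3, Batf3 and Maff include 0. The intervals are not adjusted for the number of genes tested. Those of Fos, Fosl1, Jun and Jund lie above 0, although these genes were not called.

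The proximal promoters of the 3 members with the highest differences are shown with that of Atf3, whose means were close, so that their short motifs can be compared. Each sequence is the 250 bases before the start site in RefSeq on GRCm38.p6, written 5′ to 3′ on the strand of the gene. Capitals mark matches, on either strand, to TGANNTCA or to TGACG, the first bases of the cyclic AMP response element. The windows are chr7:19310046-19310295 (minus strand) for Fosb, chr12:85473640-85473889 (plus strand) for Fos, chr4:95052223-95052472 (minus strand) for Jun and chr1:191183334-191183583 (minus strand) for Atf3.
Fosb: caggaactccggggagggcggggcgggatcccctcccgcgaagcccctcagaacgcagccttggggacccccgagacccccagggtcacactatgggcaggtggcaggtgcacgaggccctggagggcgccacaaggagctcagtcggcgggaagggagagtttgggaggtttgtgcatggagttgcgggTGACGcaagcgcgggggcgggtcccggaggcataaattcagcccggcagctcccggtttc
Fos: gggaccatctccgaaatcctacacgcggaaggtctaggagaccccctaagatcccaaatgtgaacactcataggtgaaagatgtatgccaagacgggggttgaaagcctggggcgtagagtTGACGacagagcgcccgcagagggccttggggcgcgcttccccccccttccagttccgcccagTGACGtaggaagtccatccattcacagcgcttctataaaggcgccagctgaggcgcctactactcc
Jun: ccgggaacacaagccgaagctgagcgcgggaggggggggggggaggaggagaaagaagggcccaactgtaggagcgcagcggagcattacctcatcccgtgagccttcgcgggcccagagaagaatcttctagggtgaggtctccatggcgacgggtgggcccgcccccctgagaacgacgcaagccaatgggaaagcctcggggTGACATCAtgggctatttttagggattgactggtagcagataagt
Atf3: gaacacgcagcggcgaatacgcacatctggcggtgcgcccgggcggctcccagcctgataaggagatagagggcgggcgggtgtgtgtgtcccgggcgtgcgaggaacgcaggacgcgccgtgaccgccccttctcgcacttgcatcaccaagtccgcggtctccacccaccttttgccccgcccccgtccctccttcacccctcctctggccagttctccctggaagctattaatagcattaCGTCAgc

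RefSeq start sites were available for 9 of the 10 members, in 11 windows since Maff has several starts. Fosl1 is named only. The motifs were chosen after the sequences had been read. Members were counted as genes with a match in any of their windows, while the shares are over single windows, so the units differ. TGACG was found in the windows of 5 of these 9 members (Fosb, Fos, Atf3, Junb and Maff) and in 17.8% of all 32851 promoter windows. TGANNTCA, which includes the cyclic AMP response element, was found in 3 of them (Jun, Jund and Maff) and in 11.9% of all windows. In Jun it spans positions -45 to -38 from the start site, and in Fosb TGACG spans -60 to -56. In 1 of the Maff windows the motifs overlap. No member window held TGANTCA, which 6.75% of all windows held, or the CArG box bound by serum response factor, which 1.47% held. Bases further than 250 before the start site were not searched, so these absences hold for the windows only. A match is a description of the letters and was not tested as a binding site.

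Fosl1 encodes Fra-1, a Fos protein without a transactivation domain of the Fos type that is often raised in carcinomas. Its signal was 7.54, 6.86 and 6.65 on the Sfrp1_KO arrays, against 6.59, 6.09 and 6.42 on the WT arrays. The Sfrp1_KO arrays lay above the WT arrays, with Sfrp1_KO replicate 3 just above WT replicate 1. The difference of 0.65 (SE 0.25, 95% CI 0.04 to 1.25) was not called (limma adjusted p = 0.306), and it was 0.39 without Sfrp1_KO replicate 1 (limma adjusted p = 0.512). Fosl2, which encodes Fra-2, had 6.45, 6.74 and 6.62 on the Sfrp1_KO arrays, against 6.84, 6.55 and 6.26 on the WT arrays. The arrays of the genotypes were interleaved, and the difference was 0.05 (95% CI -0.34 to 0.44; limma adjusted p = 0.962).

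Jund encodes a Jun protein that most resting cells carry. Its feature was dim, with 5.12, 4.98 and 4.97 on the Sfrp1_KO arrays, 1 of them above its background level, and 4.83, 4.30 and 4.74 on the WT arrays, all under it. The measured difference of 0.40 was not called (limma adjusted p = 0.295) and was 0.24 without WT replicate 2. With the Sfrp1_KO mean of 5.02 also near background, no bound on the difference is given.

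Atf3 encodes a stress-induced partner of Jun that often represses. Its signal was 6.13, 6.05 and 5.98 on the Sfrp1_KO arrays, against 6.55, 5.21 and 6.25 on the WT arrays. The 3 Sfrp1_KO arrays lay close together, below 2 of the WT arrays and above WT replicate 2. The difference was 0.06 (95% CI -0.73 to 0.85; limma adjusted p = 0.982), and it was -0.34 without WT replicate 2 (limma adjusted p = 0.301). Batf3, a partner of Jun best known from dendritic cells, was under background on the 3 Sfrp1_KO arrays (4.90, 4.82 and 4.94) and above it on 1 WT array (5.0, 4.77 and 5.04). Maff, a small Maf protein without a transactivation domain, was under background on all 6 arrays, at 3.98 to 4.22 in Sfrp1_KO and 4.05 to 4.23 in WT. At these levels a difference between the genotypes was not detectable for Maff.

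The WT arrays were ordered alike in most members. WT replicate 2 was the lowest of all 6 arrays in 7 of the 9 members, beside 14.1% of all genes and 19.1% of the 11010 genes above background on 3 arrays or more. The WT arrays ran from replicate 1 through replicate 3 down to replicate 2 in 6 members (Fosb, Fos, Fosl1, Jun, Jund and Atf3), beside 16.8% of all genes and 30.0% of those above background on 3 arrays or more. The range over the WT arrays exceeded that over the Sfrp1_KO arrays in 7 of the 9, beside 57.9% of all genes. These shares are descriptions, since the members share their arrays.

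Genes known to respond to tissue dissociation were read on the same arrays. Of 33 measured, 4 rose (12.1%), none fell, and 13 had an unadjusted limma p under 0.05. Over all genes 1.83% rose, 1.45% fell and 14.4% had such an unadjusted limma p. Their median difference was 0.30, and the mean signal of the list was 7.44, 7.59 and 7.29 on the Sfrp1_KO arrays, against 7.35, 6.65 and 7.03 on WT arrays 1, 2 and 3. WT replicate 2 was the lowest array in 21 of the 33, and the WT order seen in the members recurred in 20. The genes that rose were the nuclear receptor gene Nr4a2 (1.10, SE 0.16, limma adjusted p = 0.0215), the heat shock gene Hsph1 (1.00, SE 0.17, limma adjusted p = 0.0371), the stress phosphatase subunit gene Ppp1r15a (0.87, SE 0.14, limma adjusted p = 0.0308) and, under background on the WT arrays, Klf2 (at least 0.17, limma adjusted p = 0.0482). Klf2 was above background on 2 of the 3 Sfrp1_KO arrays, and its Sfrp1_KO mean of 5.13 was near background too. Each of these 4 calls was lost without at least 3 of the single arrays, with limma adjusted p up to 0.186, and none of the list was called without WT replicate 2 or 3. Egr1, an immediate-early gene of the same kind as Fos, was under background on the WT arrays and had 5.18, 5.15 and 4.82 on the Sfrp1_KO arrays (limma adjusted p = 0.166). Klf2, Egr1 and the pair that follows were named after their values were seen. Nr4a1, an orphan nuclear receptor gene, had 10.73, 10.83 and 9.52 on the Sfrp1_KO arrays, against 9.11, 7.18 and 9.33 on the WT arrays (limma adjusted p = 0.246). Zfp36, which encodes the mRNA decay factor tristetraprolin, had 7.39, 7.44 and 7.35 on the Sfrp1_KO arrays, against 7.73, 6.59 and 7.60 on the WT arrays (limma adjusted p = 0.964). Their part in the AP-1 values was not tested.

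**Figure D3:**
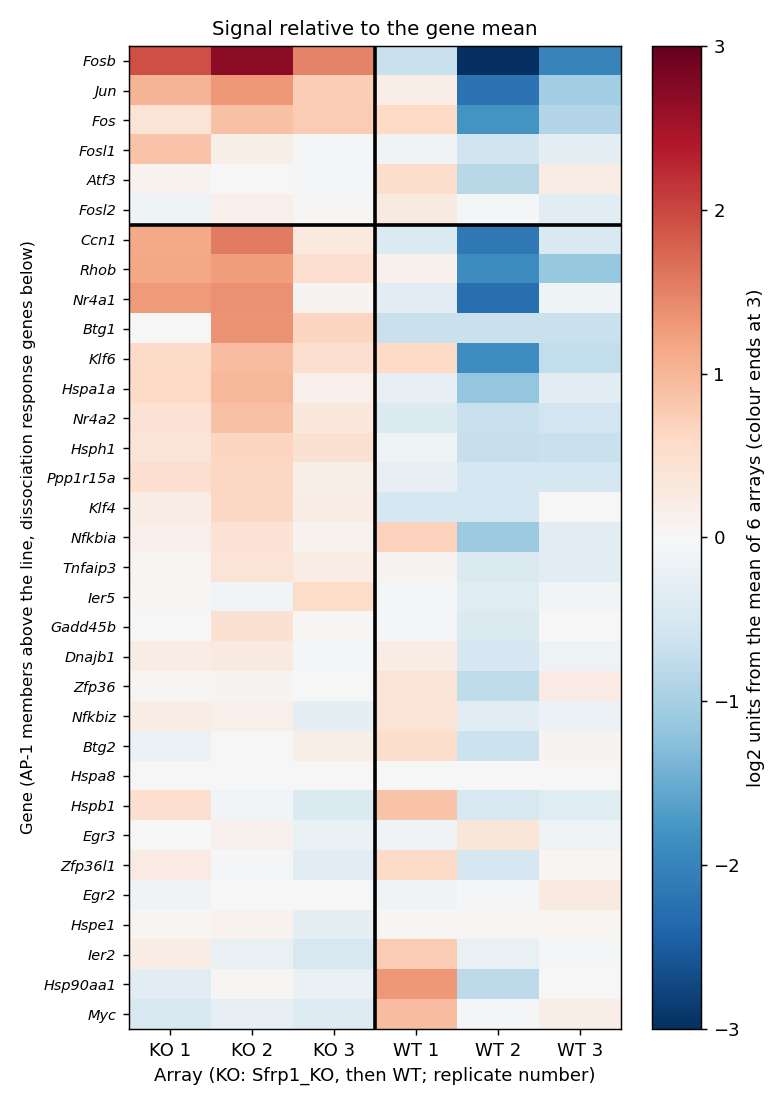
Signal of the 6 AP-1 members (above the line) and 27 dissociation response genes (below it) that were above background on 3 arrays or more, as log2 units from the mean of the gene over 6 arrays; columns are the Sfrp1_KO arrays and then the WT arrays, and rows run down by genotype difference within each block. WT replicate 2 is the lowest array in 5 of the 6 members and in 20 of the 27 dissociation genes.

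Kinases and serum response partners act above AP-1. Of 33 measured kinases, ternary complex factors and serum response cofactors, none rose and 1 fell (3.03%), a share near that of all genes called, while 8 had an unadjusted limma p under 0.05. Every Sfrp1_KO array lay above every WT array in 4 of them and below in 7, beside 9.1% and 10.8% of all genes. Map3k1, a kinase at the top of the JNK cascade that phosphorylates Jun, had 5.34, 5.40 and 5.49 on the Sfrp1_KO arrays, against 6.07, 6.34 and 5.93 on the WT arrays. Its difference was -0.70 (SE 0.12, limma adjusted p = 0.0363), and the call held without WT replicate 3 and was lost without any other single array and with a repeated quantile normalization (limma adjusted p = 0.0540). The median difference of the list was -0.04.

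Among 11 phosphatases that switch MAP kinases off, Dusp7 fell (9.09%) and none rose, beside 1.45% and 1.83% of all genes. Of the 11, 6 had an unadjusted limma p under 0.05, beside 14.4% of all genes. Every Sfrp1_KO array lay above every WT array in 5 of them and below in 1, beside 9.1% and 10.8% of all genes. The median difference of the list was 0.10. The count that rose was 2 with a repeated quantile normalization and without Sfrp1_KO replicate 3. Dusp7, a phosphatase of ERK, had 8.12, 7.67 and 7.27 on the Sfrp1_KO arrays, against 10.03, 9.54 and 10.54 on the WT arrays (difference -2.35, SE 0.31, limma adjusted p = 0.015). The call was lost without Sfrp1_KO replicate 2 (limma adjusted p = 0.0794). Dusp1, an immediate-early phosphatase named after its values were seen, followed the array order of Jun within each genotype. It had 13.15, 14.02 and 12.38 on the Sfrp1_KO arrays, against 12.29, 8.61 and 11.63 on the WT arrays, and was not called (difference 2.34, SE 0.97, limma adjusted p = 0.345). Without WT replicate 2 the difference was 1.23 (limma adjusted p = 0.350).

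Of 13 genes for the turnover and cofactors of Jun and Fos proteins, Trib1 rose (7.69%) and none fell, beside 1.83% and 1.45% of all genes. Of the 13, 3 had an unadjusted limma p under 0.05, beside 14.4% of all genes. In 5 the difference was above 0, and the median difference was -0.08. Trib1, which encodes a pseudokinase adaptor of the COP1 ubiquitin ligase, had 8.76, 8.80 and 8.72 on the Sfrp1_KO arrays, against 6.32, 6.14 and 6.85 on the WT arrays. The difference was 2.32 (SE 0.18, limma adjusted p = 0.00348), and it was called without any 1 array. Among 27 other basic leucine zipper genes none was called by limma, 6 had an unadjusted p under 0.05, and the median difference was 0.02. The smallest adjusted p-values of that list were those of Atf1, a CREB relative (0.47, SE 0.10, limma adjusted p = 0.0723), and Atf6, a sensor of endoplasmic reticulum stress (1.02, SE 0.23, limma adjusted p = 0.0789), and both passed with a repeated quantile normalization (limma adjusted p = 0.0306 and 0.0198).

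Genes known as AP-1 targets fell more often than they rose. Of 41 measured, 6 fell (14.6%), 1 rose (2.44%) and 34 were not called, and the median difference was -0.33. Over all genes 1.45% fell and 1.83% rose. Every Sfrp1_KO array lay below every WT array in 20 of the 41 and above in 3, beside 10.8% and 9.1% of all genes. An unadjusted limma p under 0.05, in either direction, was found for 20 of the 41, beside 14.4% of all genes. Vegfd, a lymphatic growth factor gene first described as induced by Fos, rose and had 7.03, 7.53 and 6.87 on the Sfrp1_KO arrays, against 5.65, 5.60 and 5.89 on the WT arrays (1.43, SE 0.19, limma adjusted p = 0.0146). The stress keratin gene Krt16 was under background on the Sfrp1_KO arrays, at 4.92, 4.77 and 4.70, against 11.28, 12.06 and 15.76 on the WT arrays, and fell by at least 7.96 (limma adjusted p = 0.0158). The hyaluronan receptor gene Cd44 had 7.62, 7.69 and 6.63 on the Sfrp1_KO arrays, against 11.75, 10.39 and 10.12 on the WT arrays (-3.44, SE 0.49, limma adjusted p = 0.0188). These 3 genes each separated the genotypes completely.

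Tnc, which encodes the matrix protein tenascin C, was under background in Sfrp1_KO and fell by at least 3.09 (limma adjusted p = 0.0124). The other targets that fell were Sprr1b, a cornified envelope gene (at least 0.65, limma adjusted p = 0.00183), the EGF receptor gene Egfr (-0.96, SE 0.13, limma adjusted p = 0.0176) and Ezr, which encodes the membrane linker ezrin (-0.75, SE 0.11, limma adjusted p = 0.0215). Sprr1b and Krt16 have close paralogs, and probes can pick up signal from those. The count that fell was 1 without Sfrp1_KO replicate 1 and 2 without Sfrp1_KO replicate 2. Krt16 and Cd44 were not called when any 1 Sfrp1_KO array was left out, Ezr kept its call only without Sfrp1_KO replicate 3 among the single arrays left out, and Vegfd was not called without Sfrp1_KO replicate 1 (limma adjusted p = 0.0558). Ivl and Lor of this list are also suprabasal keratinocyte markers, and neither was called. Ivl was under background on the Sfrp1_KO arrays, against 9.08, 6.01 and 6.26 on the WT arrays. It stood lower in Sfrp1_KO by at least 2.05, without a call (limma adjusted p = 0.195). Lor was under background on all arrays of both genotypes. Among the targets that fell, Krt16 is a keratin gene and Sprr1b a cornified envelope gene. Of 10 suprabasal keratinocyte markers 3 fell, with list means of 4.71 to 4.78 in Sfrp1_KO and 6.04 to 6.92 in WT. Of 10 basal keratinocyte markers 7 fell. The part of these keratinocyte marker differences in the target genes was not tested.

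A pair of textbook AP-1 targets that were not called were named after their values were seen, as the highest and the lowest difference among the targets not called. Ptgs2, which encodes the prostaglandin synthase COX-2, had 10.10, 10.95 and 9.67 on the Sfrp1_KO arrays, against 8.96, 7.28 and 7.52 on the WT arrays (2.32, SE 0.51, limma adjusted p = 0.0777). It was called without WT replicate 1 (limma adjusted p = 0.0285), with dim genes left out, with a repeated quantile normalization and with array weights (limma adjusted p = 0.0471, 0.0186 and 0.0281). The collagenase gene Mmp13 had 5.0, 4.74 and 5.08 on the Sfrp1_KO arrays, against 8.31, 9.90 and 6.45 on the WT arrays (-3.28, SE 0.79, limma adjusted p = 0.0994), and was called without WT replicate 3 (limma adjusted p = 0.0206).

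**Figure D4:**
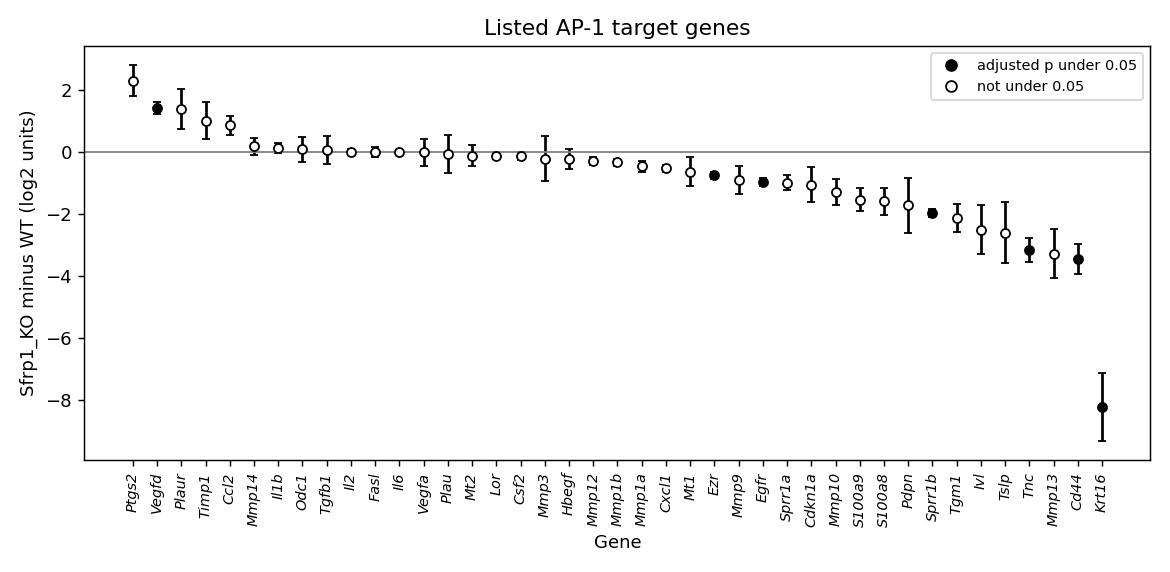
Genotype difference of the 41 measured AP-1 target genes, Sfrp1_KO minus WT in log2 units (vertical axis), with its limma standard error, ordered from the highest; filled points have an adjusted p under 0.05. The filled points are Vegfd above 0 and Ezr, Egfr, Sprr1b, Tnc, Cd44 and Krt16 below it.

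The genes whose values ran closest to those of Fosb were found by the mean absolute distance over the 6 arrays, after each gene was centred on its own mean. Serinc3, a membrane protein gene, was nearest at 0.24 log2 units, with 14.11, 15.15 and 14.11 on the Sfrp1_KO arrays and 11.50, 9.59 and 10.39 on the WT arrays. Bst2, which encodes the antiviral protein tetherin, followed at 0.50. Pdgfrb, a PDGF receptor gene, lay at 0.58, and the semaphorin genes Sema5a and Sema7a at 0.61 and 0.62. Pdgfrb is also on the fibroblast marker list, among the 2 genes of that list that rose. The part of that marker difference in the Fosb values was not tested. A likeness over 6 arrays describes those arrays only.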

How the data were processed

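Expression was measured on 6 Affymetrix MTA 1.0 arrays. The deposited values are log2 signals; the submitters' processing notes name RMA and Affymetrix Expression Console. Their versions, the summarisation level and the build are not given in the sources. Signals above 16 show a further step that no label names. Scanner files were not used here. Of 72688 features, 30604 had 1 gene symbol, 2146 had several and were not named, and 33206 had none listed. Symbols were updated by gene identifier through a RefSeq table of GRCm38.p6 (22818 features matched), and promoter windows with their coordinates came from RefSeq on the same assembly. The brightest feature per gene was kept, with no filter on dim genes.

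The Sfrp1_KO and WT arrays were tested against each other in R 4.3.3 by limma 3.58.1 (lmFit, eBayes, two-sided, Benjamini-Hochberg adjustment over 30142 genes); the procedure was tested on simulated data. Where all arrays of a genotype were under background, the difference is a bound against the background level. The members, the gene lists and the tests were chosen with earlier results of these data known. Named genes were all members, Sfrp1, up to 3 called genes per direction and list (otherwise the 2 with the smallest p) and the 5 genes nearest to a called member, without predicted names. Alternatives were dim genes left out, a block for the replicate number, the mean of all features, quantile normalization once more, array weights, trend and robust moderation, a minimum difference of 1 log2 unit, and each array left out. The number of arrays limits the precision.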

Additional observations from a re-analysis of the deposited data

How the results depend on the processing

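The 989 genes called (552 higher, 437 lower) became 535 (297 and 238) with the replicate number as a block, and the members called then numbered 0 and the called genes of the related lists 7, against 1 and 14 without it; Fosb had a limma adjusted p of 0.0904 under the block. Deviations of same-numbered arrays from their group means had correlations across genes of 0.18, -0.07 and 0.12. For differently numbered arrays the correlations ran from -0.27 to 0.19. With so few arrays these values cannot decide whether the numbers pair the arrays. The labels state no pairing, so the main test has no block. Quantile normalization once more gave 892 genes higher and 22 called in the lists, while requiring a difference of at least 1 log2 unit kept 539 genes (295 and 244). Leaving out each array in turn gave 291 to 753 genes called (191 to 487 higher, 100 to 407 lower), 0 to 3 members and 5 to 17 genes of the lists; the 3 members were Fosb, Fos and Jun, without WT replicate 1. The difference of Sfrp1 ran from -0.77 to -0.48 over these and was not called in any setting tried. The differences of Fosl2 (-0.10 to 0.20), Atf3 (-0.34 to 0.33) and Maff (-0.0923 to 0.0236) changed sign between left-out arrays, without a call. With dim genes left out, Jund, Batf3 and Maff were not tested. Fosb was called with dim genes left out, the mean of all features, quantile normalization once more, array weights and trend and robust moderation (limma adjusted p = 0.0128 to 0.0331). The cause of these changes was not tested. Jund, Batf3 and Maff stood at or near background, which limits what their values show.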
